A study of Mus musculus with 7 samples.

Results

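The nuclear genes of oxidative phosphorylation, the mitochondrial pathway that turns respiration into ATP, were followed in sorted cells of the mouse intestinal crypt on 3 diets. They were chosen by gene symbol: names that begin with Nduf (complex I), Sdha to Sdhd (complex II), names that begin with Uqcr (complex III) or with Cox4 to Cox8 (complex IV), and names that begin with Atp5 (complex V). Pseudogene names that end in -ps and a number were left out, which removed 1 name. Of 37310 genes in the count table, 92 matched, under 91 symbols, since Ndufb8 is listed under 2 identifiers. After a filter on low counts, 86 of the 92 were tested among 14626 genes. The other 6 were Cox4i2, Cox7b2, Cox8b, Cox8c, Ndufa4l2 and the second Ndufb8 identifier, none with more than 6 counts in any library. A few names match without being subunits: Ndufaf1 to Ndufaf4 are assembly factors, Atp5s and Atp5sl are related factors, Atp5l2 is a copy of Atp5l by its name, and Cox4nb is an older name of a gene outside the respiratory chain.

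The cells came from mice with a Cre recombinase that tamoxifen can switch on, expressed from the Bmi1 locus (BmicreERT2), and a red reporter that Cre activates (Rosa26RFP), so all groups share both alleles, and the red label marks cells in which that Cre was active and their descendants. Mice ate 1 of 3 purified diets from weaning to 3 months of age: AIN76A, the control (2 libraries), NWD1, which models a Western intake by being rich in fat and poor in calcium, vitamin D3 and methyl donors (3 libraries), or NWD2, a version of NWD1 to which calcium and vitamin D3 are added back (2 libraries). Crypt cells with strong red fluorescence, surface Epcam and no CD45 were collected by flow cytometry and sequenced in bulk. Nothing in the labels says whether separate mice gave separate libraries, and the p-values therefore measure only how these libraries spread.

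In the inner mitochondrial membrane, complexes I and II feed electrons from NADH and succinate into ubiquinone, complex III passes them to cytochrome c, and complex IV hands them to oxygen. Complexes I, III and IV pump protons, and complex V, the ATP synthase, lets the protons back to make ATP. All complexes but complex II also hold subunits encoded by the mitochondrial genome. In the intestine, mitochondrial respiration is known to increase as crypt cells differentiate into absorptive enterocytes, and it is also used by stem cells of the crypt base.

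The 7 libraries held 14034315 to 77959407 counts, the fewest in NWD1 replicate 3. Values below are CPM, each gene's counts scaled to a common library total, after TMM scaling, which evens out libraries whose counts go mostly to a few genes, and whose factors ran from 0.7975 in NWD2 replicate 2 to 1.093 in NWD1 replicate 1. The sorted cells contained Bmi1 at 2.11 to 5.25 CPM, Epcam at 225 to 1340 CPM, lowest in NWD2 replicate 2, and the CD45 gene Ptprc at 1.17 to 5.75 CPM. The libraries with AIN76A carried one i5 sequencing index and those with NWD2 another, and NWD1 replicate 3 was the only NWD1 library with the index of NWD2, so a fit can separate index from diet in that comparison through this library alone. NWD1 replicate 2 was the only library from a female, and 1 TPM column is headed as replicate 3 of NWD2, which the labels do not have, so that it is less sure that NWD1 replicate 3 was on NWD1.

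Levels between genes were compared in TPM, an abundance per library that divides by gene length and is deposited for 6 of the libraries, all but NWD1 replicate 3. The members were abundant: the median over the 86 tested was 432 TPM, and 18 exceeded 1000 TPM. Complex III had a median of 981 TPM over 8 genes, complex IV 877 TPM over 15, complex II 876 TPM over 4, complex V 443 TPM over 18 and complex I 350 TPM over 41. The quartiles of complex I, 147 and 545 TPM, and of complex IV, 158 and 1720 TPM, overlapped.

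The highest member of complex I by name was Ndufa4, at 2634 ± 559 TPM (SD over the 6 libraries, as for the following levels), a protein now placed in complex IV. Sdhd, a membrane anchor of complex II, led that complex at 1622 ± 229.6 TPM, and Sdhc, the other anchor, was lowest at 276 ± 28.2 TPM. In complex III the core protein Uqcrc1 stood at 2367 ± 260.0 TPM and its partner Uqcrc2 at 468 ± 33.4 TPM. Cox6b1, which links the monomers of the complex IV dimer, was the most abundant member of all at 3308 ± 573 TPM. In complex V, Atp5b, the catalytic beta subunit, reached 2383 ± 116 TPM. At the low end were Ndufb2 at 14.2 ± 3.12 TPM, the lowest of complex I, Atp5l2 at 4.04 ± 1.08 TPM and Cox6a2, the heart and muscle form of Cox6a, at 1.71 ± 0.954 TPM. The TPM values rest on gene lengths that the sources used here do not give.

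**Figure D1:**
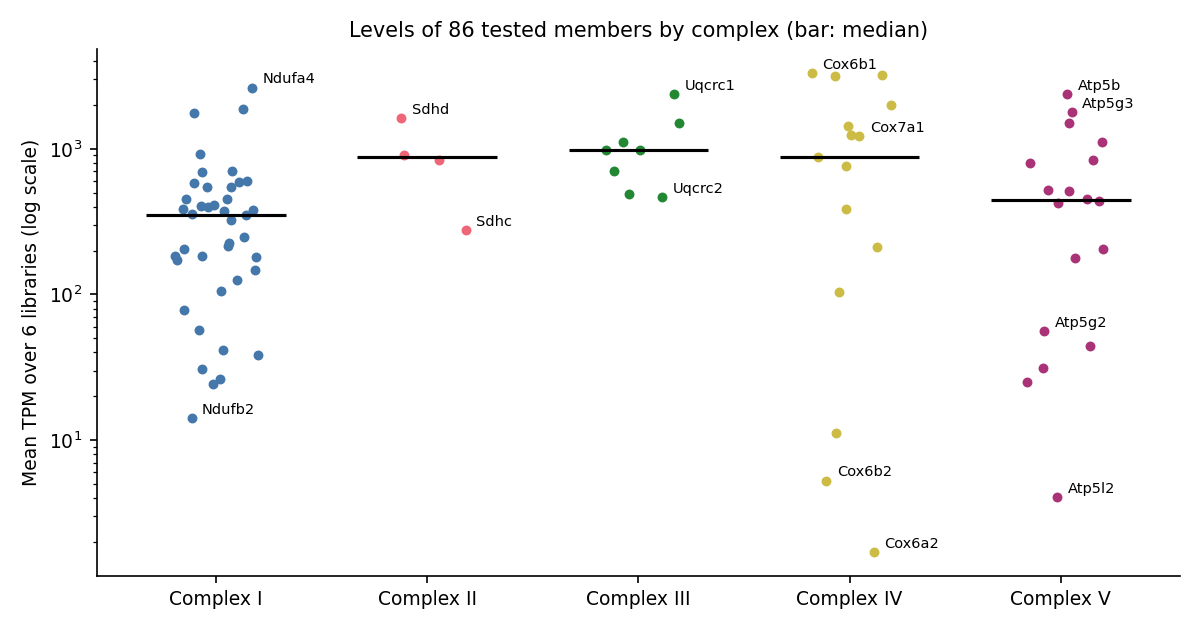
Mean TPM of each of the 86 tested members over the 6 libraries with TPM values, on a log axis, by complex; each point is a gene and the bar is the median of the complex. The quartiles of all members are 178 and 904 TPM, and the 3 points under 10 TPM are Cox6a2, Cox6b2 and Atp5l2.

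Across libraries most members varied together, in a block that set single libraries apart more than diets. AIN76A replicate 1 had the highest value of the 7 libraries for 76 of the 86 members, or 88.4%, while it was highest for 21.6% of all genes tested. NWD1 replicate 3 was lowest for 60 members, or 69.8%, against 18.4% of all genes tested, and NWD1 replicate 2 was lowest for 18 more. The share of a library's own counts that fell on the 92 genes, before any scaling, was 5.67% and 4.0% with AIN76A, 4.64%, 3.56% and 3.44% with NWD1, and 4.37% and 3.73% with NWD2. Summed and scaled, the 86 tested members came to 59620 and 38340 CPM with AIN76A, 42450, 33760 and 32060 CPM with NWD1, and 42800 and 46810 CPM with NWD2.

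The 2 control libraries differed from each other in nearly all members. The value in AIN76A replicate 1 was above that in replicate 2 for 81 of 86 members, with a median ratio of 1.77, equal to 0.82 on the log2 scale. The 2 NWD2 libraries had a median ratio of 1.01, although single members differed by up to 2.39 on the log2 scale, in Cox6a2, which had few counts. Within NWD1 the median ratio of the highest to the lowest library was 1.59. For 82 of 86 members the gap between the 2 AIN76A libraries was larger than the fitted difference between NWD1 and AIN76A. Because AIN76A replicate 1 is 1 of only 2 control libraries, both comparisons with AIN76A carry its high values.

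**Figure D2:**
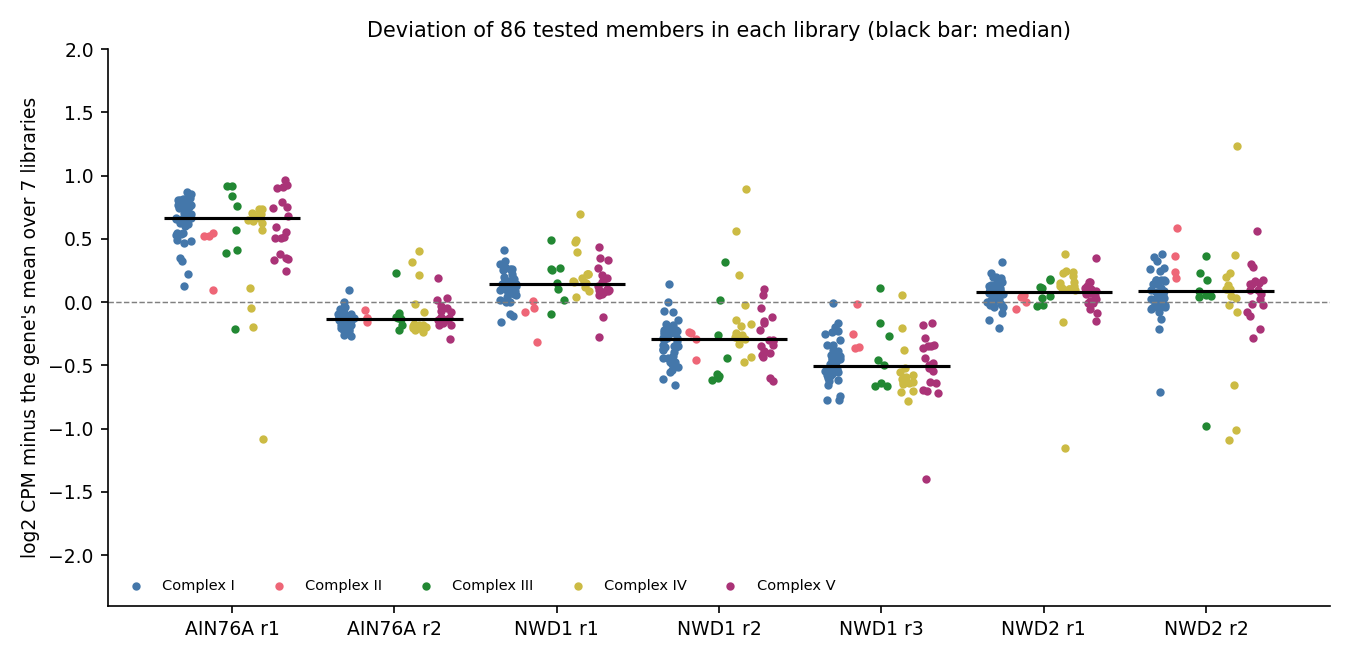
Each point is 1 of the 86 tested members, placed at its log2 CPM minus its own mean over the 7 libraries and coloured by complex; the black bar is the median of all 86. The bar is at 0.66 in AIN76A replicate 1 and at -0.50 in NWD1 replicate 3, and the other 5 libraries lie between -0.29 and 0.14.

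Promoters of respiratory chain genes are known for binding sites of NRF1, YY1 and the ETS factor GABP. RefSeq promoter windows of 300 bases on build GRCm38.p6, from 250 bases before to 50 after the start, were at hand for 74 of the 91 symbols, 3 of them under a newer name. Exact matches were searched on both strands to GCGCATGCG for NRF1, AAGATGGCG for YY1 and CCGGAAG for ETS factors, and matches of different motifs did not overlap in any member. The sites below are shown because together they cover members of all 5 complexes; the motif is in capitals as it reads on the strand of the gene, with up to 10 bases on each side.
Uqcrc1, NRF1, chr9:108936668-108936696, plus strand: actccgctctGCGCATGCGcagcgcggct
Cox6a1, NRF1, chr5:115349102-115349130, minus strand: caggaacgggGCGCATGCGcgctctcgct
Atp5k, NRF1, chr5:108434431-108434459, minus strand: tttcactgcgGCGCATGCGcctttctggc
Ndufa9, YY1, chr6:126849097-126849125, minus strand: attgtgggagAAGATGGCGgccgccgtcc
Ndufs6, YY1, chr13:73328433-73328459, minus strand: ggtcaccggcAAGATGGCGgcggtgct
Atp5j2, YY1, chr5:145191500-145191528, minus strand: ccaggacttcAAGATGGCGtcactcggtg
Sdhd, ETS, chr9:50603879-50603905, minus strand: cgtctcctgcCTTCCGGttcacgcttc
Sdhb, ETS, chr4:140961267-140961293, plus strand: ctcggagaaaCCGGAAGcggccttcca
Ndufs8, ETS, chr19:3912743-3912769, minus strand: taggctccgcCTTCCGGttgaaccgca
Cox8a, ETS, chr19:7217605-7217631, minus strand: ttccgaaataCTTCCGGctcgggcgtc

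The NRF1 motif was found in 9 of 74 member promoters, or 12.16%, in 3.92% of the promoters of genes tested and in 1.95% of all 27025 genes with a window. Genes tested are here the 9663 of the 14626 for which a window was found. Those outside the members were matched by current symbol only, while members were also matched by other names. For YY1 the count was 8 members, or 10.81%, against 3.34% and 1.64%. For the ETS motif it was 17 members, or 22.97%, against 18.81% of genes tested and 9.93% of all. In total 29 members held at least 1 of the 3 motifs, and 5 held 2 or more. All YY1 matches read on the strand of the gene, so that the ATG inside the motif faced the same way as the transcript. In 7 of the 8 members a match lay after a start. That count includes Atp5sl, whose site lay at offsets of 26 and -53 from different starts. A match shows only that these letters are in the window.

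Complex I, the NADH dehydrogenase, had the values of the block in nearly every member. AIN76A replicate 1 was highest for 39 of its 41 tested genes and NWD1 replicate 3 lowest for 28. Its summed level was 15210 and 8848 CPM with AIN76A, 10390, 7678 and 7103 CPM with NWD1, and 10160 and 10540 CPM with NWD2. The mean was 12030 ± 4501 CPM with AIN76A (SD, n = 2), 8390 ± 1754 CPM with NWD1 (n = 3) and 10350 ± 274.9 CPM with NWD2 (n = 2), so the spread of the controls was larger than any difference between diets. The groups overlapped, since NWD1 replicate 1 was above AIN76A replicate 2.

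Among its core subunits, which carry the flavin and the iron-sulfur clusters, Ndufv1, which binds NADH, had 756 and 468 CPM with AIN76A, 467, 383 and 444 CPM with NWD1, and 542 and 665 CPM with NWD2. All 3 NWD1 libraries were below all others, but the margin between NWD1 replicate 1 and AIN76A replicate 2 was small. Ndufs1, the largest subunit, stood apart from the block with 325 and 276 CPM with AIN76A, 276, 282 and 296 CPM with NWD1, and 259 and 386 CPM with NWD2. It was highest in NWD2 replicate 2 and lowest in NWD2 replicate 1, and its diets overlapped.

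The supernumerary subunits, which surround the core, followed the block more closely. Ndufb8, an accessory subunit of the membrane arm, had 481 and 258 CPM with AIN76A, 309, 184 and 196 CPM with NWD1, and 310.3 and 317 CPM with NWD2. Ndufa9, which stabilises the junction of the arms, had 574 and 381 CPM with AIN76A, 399, 321 and 295 CPM with NWD1, and 402 and 445 CPM with NWD2. In both genes the AIN76A and NWD1 libraries overlapped, and the NWD2 libraries were above all NWD1 libraries. The margin between NWD2 replicate 1 and NWD1 replicate 1 was narrow. Ndufa4, for which complex I is only the group of its name, had 1075 and 587 CPM with AIN76A, 762, 484 and 368 CPM with NWD1, and 671 and 661 CPM with NWD2. It was highest in AIN76A replicate 1 and lowest in NWD1 replicate 3, and NWD1 replicate 1 was above both NWD2 libraries. The 4 assembly factors found by name, Ndufaf1 to Ndufaf4, summed to 168 and 113 CPM with AIN76A, 138, 109 and 103 CPM with NWD1, and 141 and 118 CPM with NWD2, and all had negative log2 fold changes in NWD1 against AIN76A, from -0.40 to -0.20.

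Ndufab1, the mitochondrial acyl carrier protein, was an exception. It had 124 and 114 CPM with AIN76A, 133, 117 and 92.4 CPM with NWD1, and 116 and 64.7 CPM with NWD2. NWD2 replicate 2 alone was low, and the other 6 libraries lay between 92.4 and 132.9 CPM.

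Complex II, the succinate dehydrogenase, is the only complex coded wholly by nuclear genes and also acts in the citric acid cycle. It summed to 5611 and 4019 CPM with AIN76A, 3923, 3527 and 3798 CPM with NWD1, and 4313 and 5737 CPM with NWD2, or 4815 ± 1126 CPM with AIN76A (SD, n = 2), 3749 ± 202.5 CPM with NWD1 (n = 3) and 5025 ± 1007 CPM with NWD2 (n = 2). It was the only complex whose sum was highest in NWD2 replicate 2 and not in AIN76A replicate 1. Sdha, the flavoprotein that oxidises succinate, was highest in the same library, with 1860 and 1664 CPM with AIN76A, 1397, 1472 and 1714 CPM with NWD1, and 1668 and 2601 CPM with NWD2. Its NWD2 and NWD1 libraries overlapped, because NWD1 replicate 3 was above NWD2 replicate 1.

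Sdhb, the iron-sulfur subunit, had 1511 and 940.4 CPM with AIN76A, 1054, 888 and 816 CPM with NWD1, and 1082 and 1198 CPM with NWD2. The membrane anchor Sdhc had 663 and 422 CPM with AIN76A, 447, 378 and 361 CPM with NWD1, and 480.3 and 546 CPM with NWD2. Sdhd, the second anchor, had 1578 and 992 CPM with AIN76A, 1025, 789 and 907 CPM with NWD1, and 1082 and 1392 CPM with NWD2. In these 3 genes AIN76A replicate 1 was highest and all NWD2 libraries were above all NWD1 libraries. In NWD2 replicate 2 the sum of the markers of absorptive enterocytes was also highest: the 8 genes came to 79080 CPM there and to 34980 to 54360 CPM elsewhere. Among them Alpi differed, with 3790 CPM there, below all NWD1 libraries at 3894, 4716 and 4279 CPM. The part of these markers in the complex II values was not tested. In bulk libraries fewer cells of a type and less RNA per cell cannot be told apart.

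**Figure D3:**
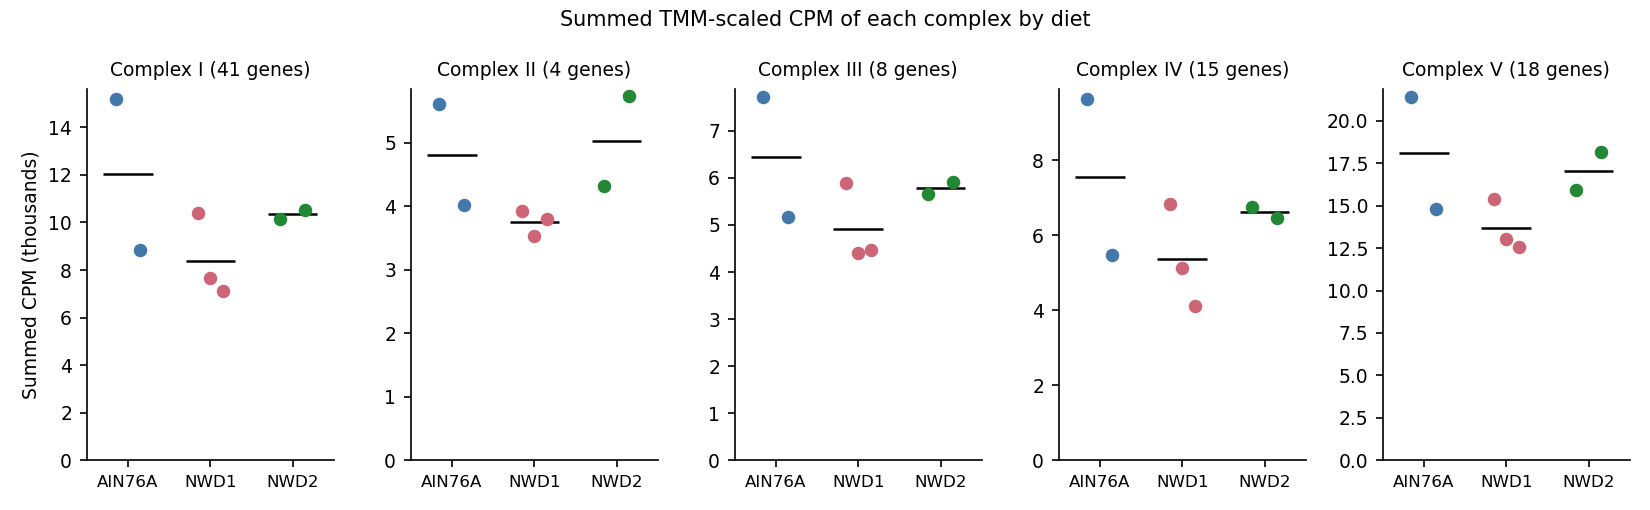
Summed CPM (TMM-scaled; the axis is in units of 1000 CPM) of the tested genes of each complex, 1 point per library by diet, with the mean of each diet as a bar; axes start at 0. In each complex the 2 AIN76A points are far apart, and in complex II the highest point is NWD2 replicate 2, at 5737 CPM.

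Complex III, the cytochrome bc1 complex, summed to 7725 and 5163 CPM with AIN76A, 5894, 4395 and 4461 CPM with NWD1, and 5650 and 5908 CPM with NWD2, or 6444 ± 1812 CPM with AIN76A (SD, n = 2), 4916 ± 846.9 CPM with NWD1 (n = 3) and 5779 ± 182.4 CPM with NWD2 (n = 2). Uqcrc1, its most abundant subunit, had 2694 and 1941 CPM with AIN76A, 1926, 1516 and 1834 CPM with NWD1, and 2105 and 2649 CPM with NWD2, with all NWD1 libraries below all others. Uqcrc2 had 813 and 567 CPM with AIN76A, 616, 511 and 506 CPM with NWD1, and 600.3 and 716 CPM with NWD2, where NWD1 replicate 1 was above AIN76A replicate 2 and NWD2 replicate 1. The 5 supernumerary subunits summed to 3639 and 1867 CPM with AIN76A, 2406, 1532 and 1394 CPM with NWD1, and 2251 and 2204 CPM with NWD2, a wider range than the 3 core subunits, which summed to 4086 and 3295 CPM with AIN76A, 3488, 2863 and 3067 CPM with NWD1, and 3399 and 3705 CPM with NWD2.

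Uqcrfs1, the Rieske iron-sulfur protein that passes electrons to cytochrome c1, went against the rest of its complex. It had 579 and 787 CPM with AIN76A, 946, 836 and 726 CPM with NWD1, and 694 and 340.1 CPM with NWD2. AIN76A replicate 1, highest for most members, was the second lowest here, and NWD2 replicate 2 was by far the lowest. Both NWD2 libraries were below all NWD1 libraries. Its log2 fold change was -0.69 ± 0.36 (SE) in NWD2 against NWD1, the smallest p of the members there (edgeR adjusted p = 0.692), while the other 7 genes of complex III had positive values of 0.11 to 0.43.

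Cyc1, cytochrome c1, which the Uqcr names miss although it is a core subunit of complex III, had the same low library, with 978 and 1075 CPM with AIN76A, 1246, 789 and 966 CPM with NWD1, and 1040 and 561 CPM with NWD2. Without NWD2 replicate 2, the log2 fold change of Uqcrfs1 was 0.03 in place of -0.40 in NWD2 against AIN76A and -0.26 in NWD2 against NWD1, and without NWD2 replicate 1 the latter was -1.33. NWD2 replicate 2 also had the lowest Epcam value of the 7 libraries. The 4 epithelial markers that include Epcam were not lowest there by sum, with 4436 CPM beside 3628 to 5231 CPM elsewhere. Their mean log2 deviation was lowest there, at -0.338. The relation of these markers to Uqcrfs1 was not tested.

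**Figure D4:**
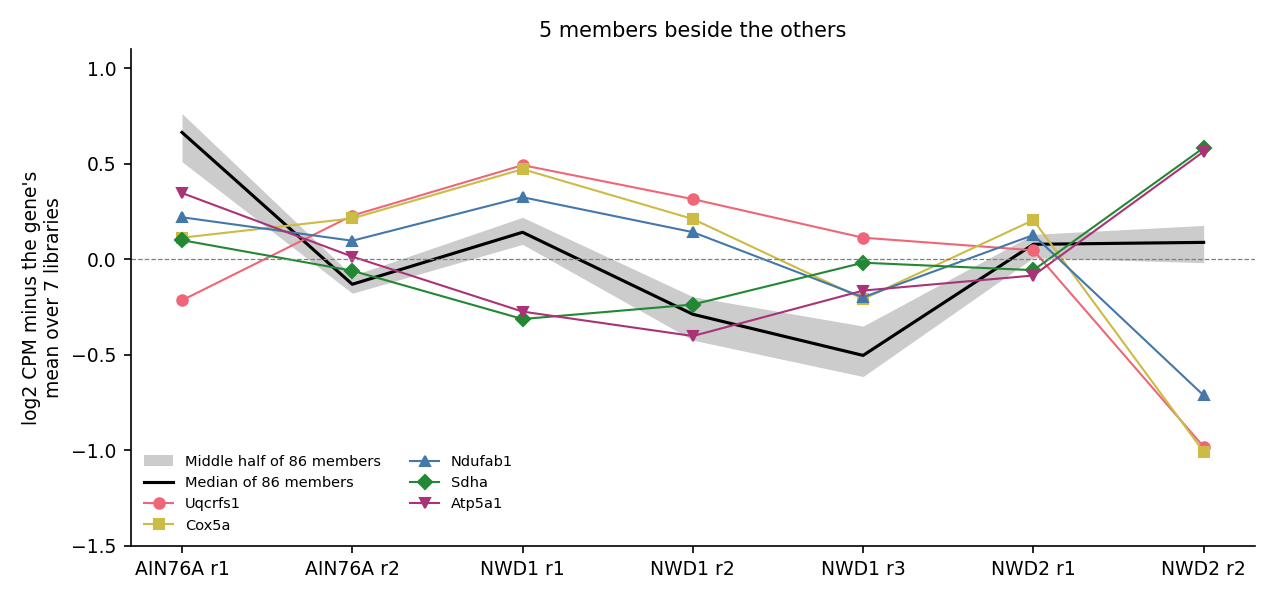
Log2 CPM minus the gene's mean over the 7 libraries for Uqcrfs1, Cox5a, Ndufab1, Sdha and Atp5a1, beside the median and the quartiles of all 86 members. Uqcrfs1, Cox5a and Ndufab1 are lowest in NWD2 replicate 2, where Sdha and Atp5a1 are highest.

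Complex IV, cytochrome c oxidase, summed to 9629 and 5486 CPM with AIN76A, 6836, 5138 and 4111 CPM with NWD1, and 6755 and 6474 CPM with NWD2, or 7558 ± 2930 CPM with AIN76A (SD, n = 2), 5362 ± 1376 CPM with NWD1 (n = 3) and 6614 ± 198.8 CPM with NWD2 (n = 2). Cox4i1, a regulatory subunit that most tissues express, had 1770 and 964 CPM with AIN76A, 1187, 784 and 761 CPM with NWD1, and 1214 and 1251 CPM with NWD2. Cox5b, which binds zinc, had 667 and 356 CPM with AIN76A, 446, 334 and 269 CPM with NWD1, and 437 and 393 CPM with NWD2. In both, AIN76A replicate 1 was far above the rest, the NWD1 libraries lay on both sides of AIN76A replicate 2, and both NWD2 libraries lay between the 2 controls. Cox5a, the partner of Cox4i1 in early assembly, instead had 281 and 301 CPM with AIN76A, 360.2, 301 and 225 CPM with NWD1, and 299.5 and 129 CPM with NWD2, with NWD1 replicate 1 highest and NWD2 replicate 2 lowest.

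Several complex IV subunits exist in tissue forms, and the forms found were those that most tissues use, with 1 exception. Cox6a1, the liver form, had 1710 and 961 CPM with AIN76A, 1140, 985 and 716 CPM with NWD1, and 1303 and 1191 CPM with NWD2. The muscle form Cox6a2 made up 0.0576 ± 0.036% (SD, n = 6) of the TPM of that pair. Cox6b1 had 1330 and 732 CPM with AIN76A, 943, 675 and 543 CPM with NWD1, and 892 and 889 CPM with NWD2, and the testis form Cox6b2 made up 0.163 ± 0.072% (SD, n = 6) of its pair. Cox8a had 868 and 519 CPM with AIN76A, 616, 463 and 373 CPM with NWD1, and 591 and 520.2 CPM with NWD2, while Cox8b and Cox8c had 0 counts in all 7 libraries. Cox4i2, the form of lung and low oxygen, had 2 counts in NWD2 replicate 2 and 0 in the other 6 libraries. Ndufa4l2, a relative of Ndufa4 that low oxygen induces, had at most 6 counts in a library.

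Cox7a was the exception. Cox7a2, the form of most tissues, had 761 and 410.1 CPM with AIN76A, 520.4, 384 and 309.5 CPM with NWD1, and 501 and 503.3 CPM with NWD2, and Cox7a1, known as the heart and muscle form, had 366 and 190.3 CPM with AIN76A, 256, 174 and 140.0 CPM with NWD1, and 197 and 284 CPM with NWD2. Per length, Cox7a1 was listed at 1226 ± 246 TPM and Cox7a2 at 1249 ± 219 TPM, so that Cox7a1 made up 49.4 ± 2.9% (SD, n = 6) of the pair, from 44.9% in NWD2 replicate 1 to 53.9% in NWD2 replicate 2. The share varied no more between diets than between the 2 NWD2 libraries. Cox7a2l, which joins complexes III and IV into supercomplexes, had 89.8 and 52.8 CPM with AIN76A, 67.6, 44.9 and 46.5 CPM with NWD1, and 71.5 and 62.6 CPM with NWD2.

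Complex V, the ATP synthase, summed to 21440 and 14830 CPM with AIN76A, 15410, 13020 and 12580 CPM with NWD1, and 15930 and 18150 CPM with NWD2. The mean was 18130 ± 4674 CPM with AIN76A (SD, n = 2), 13670 ± 1523 CPM with NWD1 (n = 3) and 17040 ± 1569 CPM with NWD2 (n = 2). Atp5b had 6722 and 5143 CPM with AIN76A, 4912, 4568 and 4679 CPM with NWD1, and 5507 and 5999 CPM with NWD2. Atp5a1, the alpha subunit that alternates with beta in the catalytic head, had 3144 and 2497 CPM with AIN76A, 2044, 1871 and 2207 CPM with NWD1, and 2331 and 3654 CPM with NWD2. All NWD1 libraries were below all others in both, and Atp5a1 was highest in NWD2 replicate 2.

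The c ring, the rotor through which protons pass, is built from 1 protein that 3 genes encode. Atp5g3 gave 88.6 ± 1.3% of their summed TPM (SD, n = 6), Atp5g1 8.66 ± 0.97% and Atp5g2 2.73 ± 0.46%. Atp5g3 had 2840 and 1799 CPM with AIN76A, 2126, 1790 and 1420 CPM with NWD1, and 1980 and 2227 CPM with NWD2. Atp5g1 had 740.4 and 406 CPM with AIN76A, 494, 337 and 274 CPM with NWD1, and 446 and 419 CPM with NWD2. Atp5g2 had 29.2 and 15.4 CPM with AIN76A, 23.6, 15.5 and 10.8 CPM with NWD1, and 19.5 and 14.3 CPM with NWD2. AIN76A replicate 1 was highest and NWD1 replicate 3 lowest in all 3, and the diets overlapped in each. By their names Atp5l and Atp5l2 are copies, but their sequences were not compared. They had 1135 and 76 counts in AIN76A replicate 1, and whether reads of either were counted for the other was not tested.

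NWD1 against AIN76A asks what the Western-style diet was accompanied by. All 41 complex I, all 4 complex II and all 18 complex V genes had negative log2 fold changes, as did 7 of 8 of complex III and 11 of 15 of complex IV, 81 of 86 in all. The 4 positive ones of complex IV were Cox5a at 0.02, Cox4nb, which is outside the chain, and Cox6a2 and Cox6b2, both under 10 TPM. Of the 10 complex IV genes for the main forms of subunits, 9 were negative. The median over members was -0.50, beside 0.01 over all genes tested, of which 49.4% were negative. The medians of complexes I to V were -0.53, -0.44, -0.52, -0.50 and -0.44. No single gene passed the test: edgeR's quasi-likelihood test called 0 of 86 members and 0 of 14626 genes (0%), with 0 members and 500 genes at an unadjusted p under 0.05, and DESeq2, which called 1 gene, and limma voom called 0 members.

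The member of smallest p was Ndufb6, an accessory subunit of complex I. It had a log2 fold change of -0.70 ± 0.34 (SE), with an edgeR adjusted p of 0.878. Ndufb7 stood at -0.67 ± 0.33, Ndufb8 at -0.69 ± 0.35, Ndufs8, which holds iron-sulfur clusters, at -0.64 ± 0.33, Ndufs6 at -0.66 ± 0.34, Ndufv3 at -0.64 ± 0.34 and Ndufb2 at -0.68 ± 0.36. Uqcrq, of complex III, stood at -0.74 ± 0.39, and Atp5e and Atp5k, of complex V, at -0.75 ± 0.37 and -0.71 ± 0.36. All 10 had an adjusted p of 0.878.

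In 5 of 86 members, or 5.81%, every NWD1 library was below every AIN76A library, where 8.61% of all genes tested were, among them Atp5a1, Atp5b, Ndufv1 and Uqcrc1. No member had all NWD1 libraries above, against 11.4% of all genes. NWD1 replicate 1 limited the count of members below, which was 64 without that library and 79 without AIN76A replicate 2. With fewer libraries, full separation is more frequent in any gene. The shares of all genes for these smaller sets are not given here, and the 8.61% does not apply to them. The size of the difference depended on AIN76A replicate 1: without it the median was -0.063 and 66 of 86 were negative, and without AIN76A replicate 2 the median was -0.85. In TPM, which lacks NWD1 replicate 3, the median was -0.16 beside 0.12 over 11427 genes.

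NWD2 against AIN76A, which shares the controls with the comparison above, gave smaller values. A negative log2 fold change was found for 78 of 86 members, with a median of -0.24 beside -0.03 over all genes tested, of which 52.6% were negative. Complex II was nearest to 0, with a median of -0.07 and Sdha at 0.28 ± 0.34, and complexes I, III, IV and V had medians of -0.27, -0.27, -0.21 and -0.25. The direction rested on 1 library: without AIN76A replicate 1 the median was 0.22 and 9 of 86 were negative, without AIN76A replicate 2 it was -0.58, and with the i5 index as a term it was 0.18 and 13 were negative.

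By edgeR 0 of 86 members and 0% of genes passed, with 0 members and 560 genes at an unadjusted p under 0.05, and DESeq2 called 52 genes but 0 members. The member of smallest p was Ndufab1, at -0.39 ± 0.34 (edgeR adjusted p = 0.996). Next came Ndufs8 at -0.42 ± 0.36, Atp5k at -0.46 ± 0.40, Cox5a at -0.44 ± 0.41 and Ndufs6 at -0.41 ± 0.38. They were followed by the assembly factor Ndufaf3 at -0.33 ± 0.31, Ndufb6 at -0.40 ± 0.38, Atp5g1 at -0.41 ± 0.39, Uqcrfs1 at -0.40 ± 0.39 and Ndufc2 at -0.38 ± 0.37, all with an adjusted p of 0.996. Atp5s was the 1 member, 1.16%, with both NWD2 libraries below both AIN76A libraries, and 0 had both above, where each held for 13.2% of all genes tested. Without AIN76A replicate 1, 70 members had both NWD2 libraries above the remaining control, and without AIN76A replicate 2, 78 had both below. The 13.2% does not apply to these counts, because full separation from a single control is more frequent in any gene. The matching shares of all genes are not given here.

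**Figure D5:**
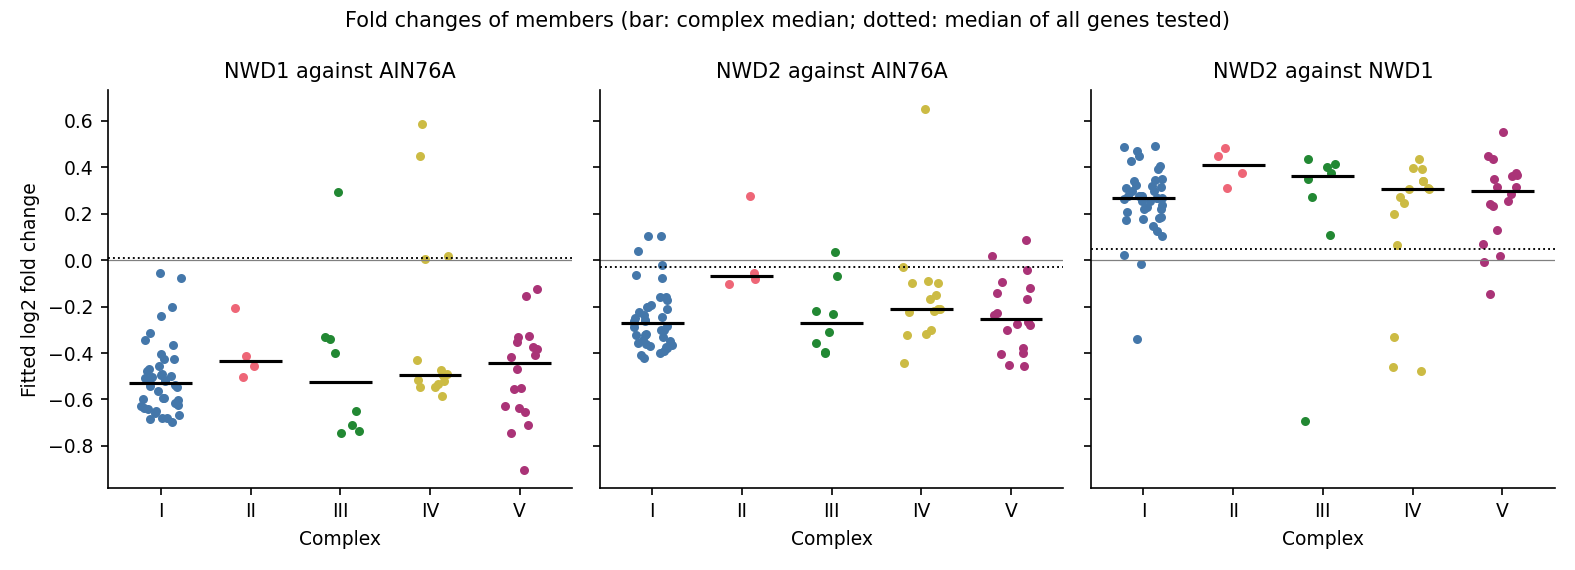
Fitted log2 fold change of each tested member by complex in the 3 comparisons; the bar is the median of the complex and the dotted line the median of all 14626 genes tested. The bars lie between -0.53 and -0.44 in NWD1 against AIN76A, between -0.27 and -0.07 in NWD2 against AIN76A and between 0.27 and 0.41 in NWD2 against NWD1.

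NWD2 against NWD1 asks what raising calcium and vitamin D3 was accompanied by. Positive log2 fold changes were found for 78 of 86 members after TMM scaling and negative ones for 8, with a median of 0.28 beside 0.05 over all genes tested, of which 46.5% were negative. After scaling by library size alone 29 of 86 were negative and the median was 0.04 beside -0.19 over all genes, and in TPM, which lacks NWD1 replicate 3, 52 were negative and the median was -0.04 beside -0.12 over 11427 genes. Library size alone also shifted the median of all genes to 0.11 and -0.15 in the comparisons of NWD1 and NWD2 with AIN76A. The medians of complexes I to V were 0.27, 0.41, 0.36, 0.31 and 0.30, highest in complex II, where all 4 genes were positive. Beside these, all 7 enteroendocrine markers were negative, with a median of -1.71, and so were all 6 tuft markers, with a median of -1.64. Against AIN76A their medians with NWD2 were -1.73 and -1.58, and 0 of these markers were called by edgeR in either comparison. The part of these cell types in the members' values was not tested.

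Nothing passed the test here either, with 0 of 86 members and 0% of genes called by edgeR, 0 members and 1154 genes at an unadjusted p under 0.05, and 174 genes but 0 members called by DESeq2. After Uqcrfs1, the smallest p belonged to Atp5a1, which had a log2 fold change of 0.55 ± 0.31 (edgeR adjusted p = 0.711). Ndufv1 stood at 0.49 ± 0.29, Sdha at 0.48 ± 0.30, Ndufa1 at 0.47 ± 0.30, Sdhd at 0.45 ± 0.31, Uqcrc1 at 0.43 ± 0.30, Atp5o, in the stalk of complex V, at 0.44 ± 0.32 and Ndufb9 at 0.49 ± 0.36, with adjusted p values up to 0.759.

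In 18 of 86 members, or 20.9%, both NWD2 libraries were above all 3 NWD1 libraries, where 10.8% of all genes tested were. These included 3 of the 4 complex II genes (Sdhb, Sdhc and Sdhd), Uqcrc1 of complex III, Cox4i1, Cox6a1 and Cox6c of complex IV, Atp5a1, Atp5b, Atp5c1 and Atp5h of complex V, and Ndufa1, Ndufa9, Ndufa10, Ndufb8, Ndufb9 and Ndufv1 of complex I. The count was 3 by library size alone and 71 without NWD1 replicate 1, 33 without NWD2 replicate 1, so it depended on scaling and on these libraries. The 10.8% holds only for TMM scaling with all libraries. Shares of all genes under the other settings are not given here, so these counts cannot be set against it. Only Uqcrfs1, or 1.16%, had both NWD2 libraries below, against 14.5% of all genes.

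Genes that work with the complexes but carry other names shared the pattern in part. Of 22 electron carriers, ubiquinone enzymes and nucleotide exchangers, 18 had negative log2 fold changes in each comparison with AIN76A and 0 were called. Cycs, cytochrome c, had 382 and 264 CPM with AIN76A, 325, 269.5 and 241 CPM with NWD1, and 263 and 347 CPM with NWD2. Slc25a5, which exchanges ADP for ATP, had 3626 and 3147 CPM with AIN76A, 3188, 2933 and 2676 CPM with NWD1, and 3511 and 4269 CPM with NWD2. Ucp2, an uncoupling protein homologue, had 1922 and 1594 CPM with AIN76A, 2323, 1462 and 1312 CPM with NWD1, and 1206 and 1632 CPM with NWD2. Atpif1, the inhibitor of the ATP synthase, had 679.6 and 447 CPM with AIN76A, 596, 316 and 294 CPM with NWD1, and 449.5 and 458 CPM with NWD2, with AIN76A replicate 1 highest as for the members. Of 22 assembly factors with other names, 16 were negative in NWD1 against AIN76A, 18 in NWD2 against AIN76A and 8 in NWD2 against NWD1, and 0 were called.

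Known regulators of mitochondrial gene expression had mostly positive values in the comparisons with AIN76A. Of 14 tested, 5 had negative log2 fold changes in NWD1 against AIN76A, 4 in NWD2 against AIN76A and 6 in NWD2 against NWD1, and 0 were called. Ppargc1a, a coactivator of mitochondrial biogenesis, had 94.7 and 92.9 CPM with AIN76A, 75.2, 83.9 and 103 CPM with NWD1, and 70.2 and 122 CPM with NWD2. Nrf1 had 26.0 and 23.6 CPM with AIN76A, 22.7, 25.1 and 27.6 CPM with NWD1, and 31.0 and 25.9 CPM with NWD2. Gabpa, the DNA-binding subunit of GABP, had 23.1 and 39.0 CPM with AIN76A, 29.3, 36.9 and 40.8 CPM with NWD1, and 27.9 and 43.1 CPM with NWD2, lowest in AIN76A replicate 1, where the members were highest. Tfam, which packages mitochondrial DNA, had 55.0 and 46.3 CPM with AIN76A, 49.5, 37.0 and 38.0 CPM with NWD1, and 53.8 and 47.9 CPM with NWD2. Esrra, a nuclear receptor that acts with Ppargc1a, had 41.9 and 60.4 CPM with AIN76A, 96.2, 69.7 and 92.1 CPM with NWD1, and 54.0 and 24.9 CPM with NWD2, highest with NWD1.

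The high value in AIN76A replicate 1 was shared by other gene families. The 76 tested cytosolic ribosomal protein genes deviated on average by 0.88 from their own means in that library and the 72 mitochondrial ribosomal protein genes by 0.53, beside 0.59 for the 86 members (log2 scale). In NWD2 replicate 2 the families parted, with -0.53 for cytosolic and -0.20 for mitochondrial ribosomal proteins and 0.06 for the members. The 11 tested genes of the mitochondrial genome, which code for the partners of these subunits, did not share the high value of AIN76A replicate 1. They summed to 15850 and 16560 CPM with AIN76A, 15990, 17330 and 10940 CPM with NWD1, and 18230 and 16550 CPM with NWD2. AIN76A replicate 1 was second lowest, and NWD1 replicate 3 was lowest, as for most members.

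Of the markers of other crypt cells, the sums for Paneth and goblet cells were highest in AIN76A replicate 1. The sums for enteroendocrine, tuft, crypt base stem and enterocyte cells were not. Single markers differed from their sums: the Paneth marker Pnliprp2 and the goblet marker Clca3 were highest in NWD1 replicate 3. The goblet marker Fcgbp was highest in NWD2 replicate 2. The 6 Paneth markers summed to 33040 and 22870 CPM with AIN76A, 17180, 12330 and 16550 CPM with NWD1, and 8995 and 17850 CPM with NWD2, and the 7 goblet markers to 20550 and 10010 CPM with AIN76A, 5738, 8671 and 10480 CPM with NWD1, and 8681 and 11000 CPM with NWD2, and all 6 and all 7 were tested. The 7 enteroendocrine markers summed to 1759 and 2166 CPM with AIN76A, 1778, 1902 and 1624 CPM with NWD1, and 444 and 619 CPM with NWD2. The 6 tuft markers summed to 177 and 113 CPM with AIN76A, 218, 89.3 and 151 CPM with NWD1, and 45.8 and 56.2 CPM with NWD2. The 5 markers of crypt base stem cells summed to 380.5 and 851 CPM with AIN76A, 952, 352 and 459 CPM with NWD1, and 1184 and 448 CPM with NWD2. By sum, enteroendocrine markers were highest in AIN76A replicate 2, tuft markers in NWD1 replicate 1 and stem cell markers in NWD2 replicate 1. AIN76A replicate 1 was second lowest for the stem cell markers. Leukocyte markers summed to 5.99 to 18.7 CPM and stromal markers to 1.74 to 9.87 CPM, low in all libraries. Relative gene length was taken from the ratio of counts to TPM. Across the 86 members, Pearson's r between the log2 of that length and the deviation was -0.21 in AIN76A replicate 1. It was -0.41 in NWD1 replicate 1, 0.51 in NWD1 replicate 3 and between -0.06 and 0.15 in the other 4. Over 13947 genes r was -0.32, -0.17 and 0.31 in those 3 libraries and between -0.09 and 0.09 in the other 4. Genes share the library and its depth, so these values are a description. The part of cell makeup and of length in the members' values was not tested.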

How the data were processed

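RNA from bulk-sorted cells was amplified with a SMART-Seq v4 kit and made into paired-end Nextera XT libraries, per the labels' protocols. The submitters' processing notes name STAR 2.4.2a, HTSeq 0.6.1, edgeR and build mm9, without saying which step each served. The authors deposited raw read counts per gene for 7 libraries and TPM for 6 of them; 1 TPM column matched no labelled sample and was not used. How TPM was computed is not given in the sources used here, and the libraries do not mark strand.

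Counts were fitted with edgeR 4.0.16 (TMM, filterByExpr, robust quasi-likelihood test over the 3 diets, Benjamini-Hochberg adjustment over 14626 genes, threshold 0.05, 4 residual degrees of freedom). The biological coefficient of variation was 0.363. Tests were tried on simulated data first. Alternatives were DESeq2 1.42.0, limma 3.58.1 on counts (voom) and on log2(TPM + 1), other scalings and filters, terms for replicate number, sex and i5 index, and each library left out. Medians and counts over the genes carry no test. Named genes are fixed subunits and isoforms of each complex, the highest and lowest by TPM, and, where fewer than 10 pass, the 10 of smallest p per comparison among those whose mean log2 CPM is 1 or more. Genes outside that rule, among them Atp5s and those listed as not overlapping, were named after their values were seen. The members and lists were chosen with earlier results of these data known. 1 gene that the rule names is not reported here.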

Additional observations from a re-analysis of the deposited data

How the results depend on the processing

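The count of members called was 0 in all 3 comparisons under every alternative run. Over all genes, edgeR called 0 in each comparison, but 85, 190 and 384 without the filter on low counts, in NWD1 against AIN76A, NWD2 against AIN76A and NWD2 against NWD1, and at most 6 under the other edgeR fits. Of the alternative values that answer a comparison, 387 were judged the same as the main value and 30 were judged moved. Medians were judged against the spread between libraries. The counts of members called, all 0, were judged only by whether the count changed, and they add to the 387. Leaving out 1 library at a time, the median log2 fold change in NWD1 against AIN76A ran from -0.85 to -0.063 for all members, -0.88 to -0.066 for complex I, -0.73 to -0.12 for complex II, -0.85 to -0.11 for complex III, -0.85 to -0.026 for complex IV and -0.75 to -0.086 for complex V. In NWD2 against AIN76A it ran from -0.58 to 0.22 for all members, -0.63 to 0.19 for complex I, -0.35 to 0.30 for complex II, -0.58 to 0.24 for complex III, -0.51 to 0.29 for complex IV and -0.54 to 0.20 for complex V. In NWD2 against NWD1 it ran from 0.16 to 0.48 for all members, 0.12 to 0.46 for complex I, 0.25 to 0.51 for complex II, 0.22 to 0.59 for complex III, 0.12 to 0.53 for complex IV and 0.18 to 0.49 for complex V. On log2(TPM + 1), without NWD1 replicate 3, the medians in NWD1 against AIN76A were -0.16 for all members, -0.15 for complex II and -0.089 for complex IV, and those in NWD2 against NWD1 were 0.17 for complex II and -0.063 for complex IV. By library size alone complex II stood at 0.15 in NWD2 against NWD1. With a term for the i5 index, the medians in NWD2 against AIN76A were 0.18 for all members, 0.12, 0.13, 0.36 and 0.20 for complexes I, III, IV and V, and complex IV stood at 0.70 in NWD2 against NWD1. NWD1 replicate 3 alone links the indexes in that fit. Single genes changed sign in NWD2 against AIN76A. With the i5 term, Ndufab1 was at 0.043, Atp5k at 0.21, Cox5a at 0.11, Ndufs6 at 0.15, Ndufb6 at 0.033, Atp5g1 at 0.20 and Ndufc2 at 0.19. With 1 library left out, the lowest and highest values were -0.88 to 0.16 for Atp5k, -0.78 to 0.12 for Ndufs6, -0.63 to 0.053 for Ndufaf3, -0.80 to 0.17 for Ndufb6, -0.77 to 0.091 for Atp5g1 and -0.75 to 0.14 for Ndufc2, the positive ones without AIN76A replicate 1, and -1.22 to 0.045 for Cox5a and -1.05 to 0.028 for Uqcrfs1, the positive ones without NWD2 replicate 2. The cause was not tested. The replicate numbers did not pair the samples (correlations of deviations from -0.01 to 0.25). With a replicate block 0 members were called, and 80, 77 and 15 members had negative values in NWD1 against AIN76A, NWD2 against AIN76A and NWD2 against NWD1. With 2 or 3 libraries a diet and a control pair that differed by a median of 1.77-fold, differences of the size seen here could not be separated from the spread.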

Other observations

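Cytochrome c oxidase subunit 3, mt-Co3, described after its values were seen, is coded by the mitochondrial genome. It had 0.18 and 0 CPM with AIN76A, 104.5, 94.7 and 0 CPM with NWD1, and 0.15 and 0 CPM with NWD2. Its 2 high libraries were both NWD1, and the third NWD1 library was at 0. The 11 tested genes of the mitochondrial genome, mt-Co3 among them, summed to between 10940 and 18230 CPM in every library. Whether values near 0 reflect the level of this transcript or the counting of its reads was not tested.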
